A study of Mus musculus with 8 samples.

Results

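The follistatin, Lefty and inhibin/activin genes were followed in mouse liver through 10 genes: the secreted antagonists Fst and Lefty1, the follistatin-related gene Fstl1, the activin subunit genes Inhba, Inhbb, Inhbc and Inhbe, the receptor genes Acvr2a and Acvr2b, and the inhibitory Smad gene Smad7. Every probe set to which the platform annotation gives one of these symbols as its only gene was taken, which gave 18 of the 45037 probe sets, for 10 of the 18193 genes named on the array. Fst and Lefty1 were chosen by their higher signal in the knockout arrays, so their levels in MT mice and in the 3-month-old WT mice they were set against are given as a description with no test. The other 8 genes were tested in each comparison. Livers came from wild type (WT) mice of 3, 12 and 19 months and from Sirt1-null (MT) mice of 3 months that carry a targeted deletion within Sirt1, a gene for an NAD-dependent deacetylase. All 4 groups shared a mixed genetic background of 129, FVB and Black Swiss and were killed in the morning, and each group had 2 arrays. Most Sirt1-null animals of this line die as embryos, so the MT mice are survivors. The study speaks of more mice for each group than there are arrays, and whether an array carried RNA of 1 mouse or of several is not stated, so the p-values reflect the spread between arrays, and that spread may be technical.

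Activins are dimers of inhibin beta subunits. They bind a type II receptor, ACVR2A or ACVR2B, which recruits and phosphorylates a type I receptor, and the active complex phosphorylates SMAD2 and SMAD3. Follistatin wraps around activin and keeps it from its receptors, LEFTY1 blocks Nodal signalling and is itself a Nodal target in the embryo, and SMAD7 sits on the active type I receptor and is induced by the pathway it restrains. In liver, activin A limits hepatocyte growth, follistatin is a hormone released mainly by hepatocytes, and Inhbc and Inhbe are genes with strong expression in hepatocytes.

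Array medians lay between 74.7 and 83.1 in MAS5 signal, the linear intensity that the authors scaled to an equal mean on every array. Of the 18 probe sets, 15 lay in the upper 50% of mean signal and were tested, and all 10 genes had at least 1 tested probe set. The 9 hepatocyte markers on the array were at or above the 97.9th percentile in all 8 samples, as in liver. Sirt1 itself read 615 and 713 in MT mice, above its 589 and 539 in young WT mice, with a log2 difference of 0.23 that did not pass (limma adjusted p = 0.674), and whether its probe set lies within the deleted part is not known here. The methods describe the mutant mice as male, yet Xist was at or above the 95.2nd percentile and Y-linked probe sets at or below the 43.1st on all 8 arrays.

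Fst was low in young WT liver and several-fold higher in each of the other 3 groups. Its brighter probe set, 1434458_at, read 87.2 and 63.7 in 3-month-old WT mice and 347 and 540 in MT mice of the same age. Among older WT mice it read 685 and 379 in the 12-month group and 213 and 525 in the 19-month group. Both young WT arrays therefore lay below the other 6, while the arrays of MT, 12-month-old and 19-month-old mice overlapped one another. From low to high, the geometric means were 74.5 (young WT), 334 (19 months), 433 (MT) and 509.6 (12 months). On the log2 scale the MT level was 2.54 above that of young WT mice, or 5.81-fold higher, with young WT array 2 below its array median, and the levels at 12 and 19 months were 2.77 and 2.17 above it. These 3 differences share the same young WT arrays, so they are not separate readings of a rise. The difference between 19 and 12 months uses none of the arrays that chose Fst, although its SE rests on the spread within all 4 groups. There the log2 difference was -0.61 ± 0.44 (SE, 2 arrays a group, adjusted p = 0.659 in limma), with a 95% interval of -1.60 to 0.39.

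The other Fst probe set, 1421365_at, was dimmer and gave the same order of young WT below the rest. It read 49.5 and 11.9 in WT mice at 3 months, below the array median on both arrays, and 111 and 363 in MT mice. At 12 months its signals were 371 and 227, and at 19 months they were 90.5 and 448. Because the young WT level was below the array median, only a lower bound of the fold is given against that median: MT mice were at least 2.49-fold higher, 12-month-old mice at least 3.60-fold and 19-month-old mice at least 2.49-fold. Between 19 and 12 months the log2 difference was -0.53 ± 0.87 (limma adjusted p = 0.877). Both Fst probe sets correlated at r = 0.956 over the 8 arrays, on which they share the same RNA.

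Lefty1 had a different order of levels from Fst, with MT mice alone at the top. Probe set 1417638_at read 392 and 346 in MT mice and 97.5 and 105 in WT mice of the same age. The older WT mice lay in between, at 151 and 143 at 12 months and at 124 and 158 at 19 months. Each MT array was above all 6 WT arrays, and both young WT arrays were below all older ones. The geometric means were 101 in the young WT group, 140 and 147 in the 19-month and 12-month groups, and 368 in the MT group. MT mice were 1.86 above young WT mice on the log2 scale, or 3.63-fold, whereas the 12-month and 19-month levels were 0.54 and 0.47 above them. The 2 older groups were neighbours that did not differ beyond their spread, with a log2 difference of -0.07 ± 0.25 between 19 and 12 months (SE, limma adjusted p = 0.946) and an interval of -0.62 to 0.48.

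Fstl1, which encodes a secreted glycoprotein with a follistatin-like domain, showed no such order. Probe set 1416221_at read 148 and 191 in young WT mice and 179.8 and 147 in MT mice, and at 19 months its signals of 212 and 101 were the highest and the lowest of all 8. Probe set 1448259_at read 167 and 141 in young WT mice and 182 and 169.6 in MT mice, so that its groups did not overlap, by a small margin. The MT differences were -0.05 and 0.19 on the log2 scale (limma adjusted p = 0.971 and 0.835), and the 12-month and 19-month differences lay between -0.23 and -0.17. Both Fstl1 probe sets went against each other over the 8 arrays (r = -0.46).

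**Figure D1:**
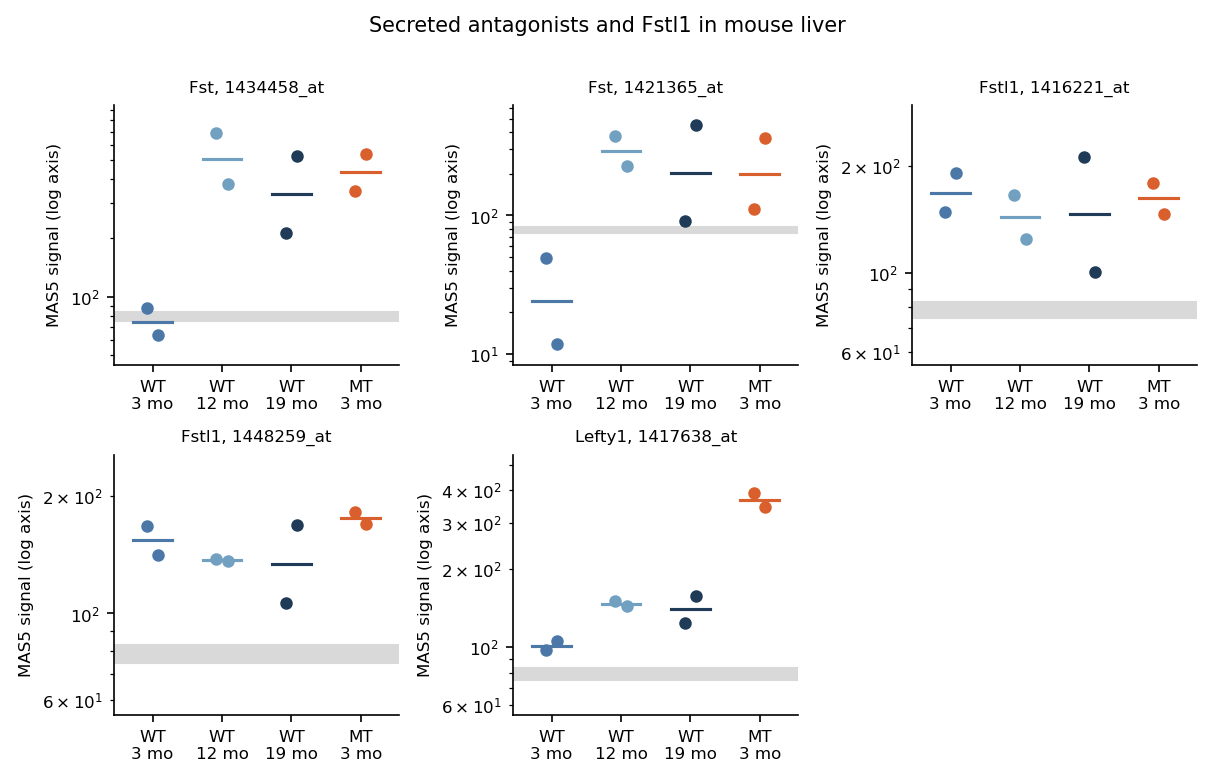
MAS5 signal (log axis) of the 5 probe sets of Fst, Fstl1 and Lefty1 by group, each array shown as a point, a line at their geometric mean and a grey band over the range of array medians. Fst probe set 1434458_at is near or below the band only in 3-month-old WT mice, and Lefty1 is highest in the 2 MT arrays, at 392 and 346.

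Of the activin subunit genes, Inhbc, Inhbe and Inhba were read well above the array median and Inhbb near it, and none of their tested probe sets passed the test in any comparison. Inhbc and Inhbe, for the activin C and E subunits, lie next to each other on chromosome 10 between Gli1 and R3hdm2. Their upstream sequences are shown because the signals of these neighbours were correlated over the arrays. Each is the 250 bases before the annotated start, 5′ to 3′ on the strand of the gene, from the RefSeq table of build GRCm38.p6. Capitals mark the letters of the motifs searched. They were looked for on both strands: the E-box CACGTG of clock factors, the D-box TTATGTAA of PAR bZIP factors, the SMAD palindrome GTCTAGAC, the FOXH1 site AATCCACA, the C/EBP-ATF response element TGATGNAA and the CCAAT box.

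Inhbc, chr10:127370549-127370798, minus strand: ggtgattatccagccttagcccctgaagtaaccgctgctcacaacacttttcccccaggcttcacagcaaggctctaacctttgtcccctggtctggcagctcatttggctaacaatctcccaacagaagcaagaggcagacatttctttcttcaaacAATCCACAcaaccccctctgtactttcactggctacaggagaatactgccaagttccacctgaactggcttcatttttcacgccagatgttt
Inhbe, chr10:127351849-127352098, minus strand: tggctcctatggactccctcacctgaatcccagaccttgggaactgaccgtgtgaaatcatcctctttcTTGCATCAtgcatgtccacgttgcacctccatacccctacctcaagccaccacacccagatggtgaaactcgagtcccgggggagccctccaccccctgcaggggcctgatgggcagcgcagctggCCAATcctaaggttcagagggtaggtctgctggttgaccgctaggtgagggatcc

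The Inhbc window held the FOXH1 letters from base 92 to base 85 before the start, as did 0.718% of 32851 windows of the same length. The Inhbe window held the C/EBP-ATF letters on the other strand from base 181 to base 174, as did 3.45% of windows, and a CCAAT box from base 55 to base 51, as did 33.8%. Neither held the E-box (6.02% of windows), the D-box (0.819%) or the SMAD palindrome (0.167%). Of the 7 genes whose window was searched, Inhba held the D-box letters, on the other strand from base 123 to base 116. A match is a description of letters and not a bound site. The 2 windows share no motif of those searched.

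Inhbc, read by probe set 1422001_at, gave 906 and 979 in young WT mice and 1376 and 1674 in MT mice. Its signals in older WT mice were 707 and 1374 at 12 months and 1100 and 1733 at 19 months. Both MT arrays lay above both young WT arrays, and the 12-month arrays spanned the young WT level. The MT difference was 0.69 ± 0.31 on the log2 scale, or 1.61-fold (SE, 2 arrays a group, unadjusted p = 0.0516, limma adjusted p = 0.374), and the difference at 19 months was 0.55 ± 0.31 (adjusted p = 0.517). Neither passed the test.

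Inhbe, read by probe set 1422144_at, read 670.5 and 617 in young WT mice, with 904 and 749 in the MT group. It was at 597 and 1087 at 12 months and at 987 and 1038 at 19 months. The MT and 19-month arrays lay above the young WT arrays without overlap, and 12-month array 1 lay below them. At 19 months the difference was 0.65 ± 0.26 on the log2 scale (unadjusted p = 0.0301, limma adjusted p = 0.352), and in MT mice it was 0.36 ± 0.26 (adjusted p = 0.596). Inhbc and Inhbe correlated at r = 0.703 over the 8 arrays, and both had their lowest signal on array 1 of the 12-month group. The value is not particular to these neighbours, since Inhbc and Acvr2a correlated at 0.728.

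Inhba, for the subunit of activin A, was higher at both older ages than in young WT mice, without passing the test. Probe set 1422053_at read 559 and 637 in young WT mice, 1009 and 999 at 12 months and 966 and 1063 at 19 months, so all 4 older arrays lay above both young ones. MT mice read 742 and 318, 1 array above and 1 far below young WT. The log2 differences were 0.75 ± 0.32 at 12 months and 0.76 ± 0.32 at 19 months (1.68-fold and 1.70-fold, unadjusted p = 0.0436 and 0.0408, limma adjusted p = 0.568 and 0.380), and -0.30 ± 0.32 in MT mice (adjusted p = 0.757). The MT difference turned to 0.32 without MT array 2 and was -0.91 without MT array 1. The other Inhba probe set, 1458291_at, was below the array median on all 8 arrays, between 11.2 and 53.4, and was not tested.

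Inhbb, for the activin B subunit, had uneven readings. Probe set 1426859_at read 229.5 and 19.5 on the 2 young WT arrays, 205 and 103 in MT mice, 107 and 187 at 12 months and 204 and 88.8 at 19 months. The MT difference of 1.12 ± 0.96 (limma adjusted p = 0.672) rested on young WT array 2. It was -0.66 without that array and 2.90 without array 1. Probe set 1426858_at read 108 and 98.2 in young WT mice and 97.7 and 181 in MT mice, with a difference of 0.37 ± 0.41 (adjusted p = 0.762), and its 19-month signals of 65.9 and 86.3 lay below both young arrays. No direction could be given for Inhbb in either comparison, since its probe sets correlated at r = -0.21.

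**Figure D2:**
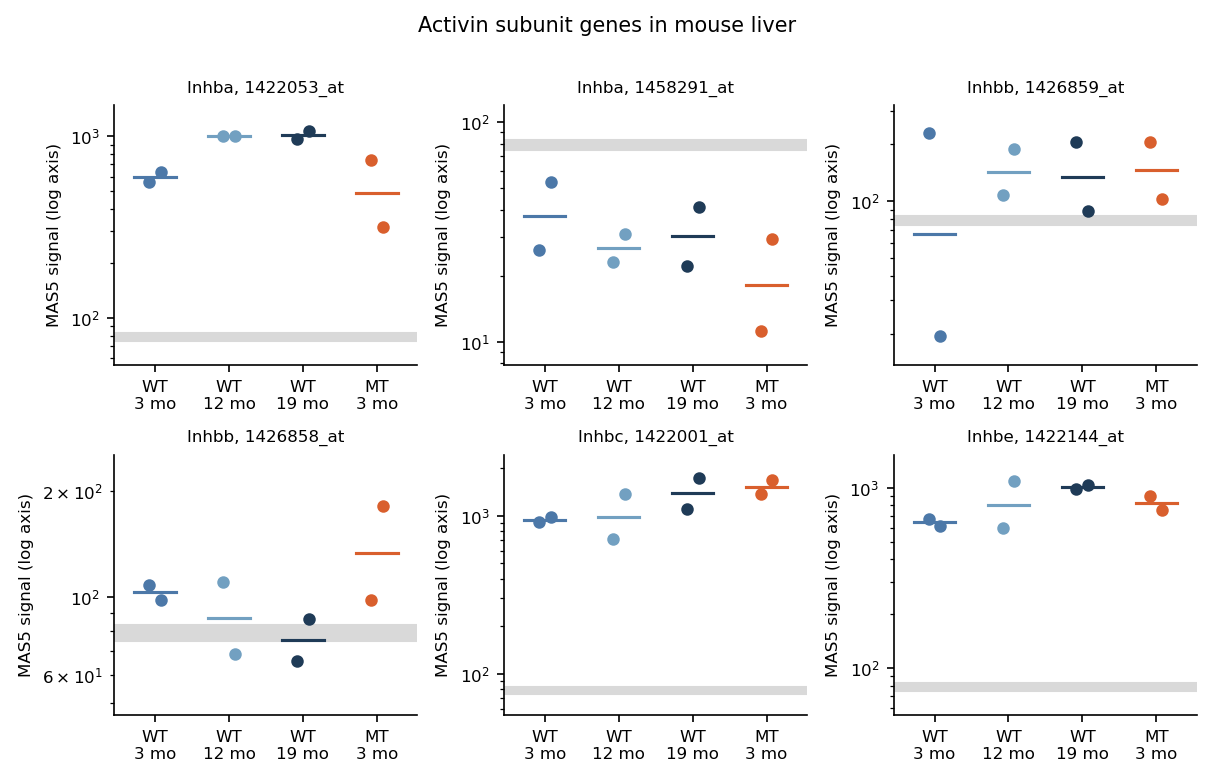
MAS5 signal (log axis) of the 6 probe sets of the activin subunit genes by group, each array shown as a point, a line at the geometric mean and a grey band over the range of array medians. Inhba probe set 1422053_at lies between 966 and 1063 on the 4 arrays of older WT mice, and the Inhbb probe set 1426859_at has 1 young WT array at 19.5.

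Neither type II receptor gene passed the test in MT mice. Acvr2a was read brightly and evenly by probe set 1437382_at, at 1397 and 1278 in young WT mice, 1235 and 1283 at 12 months, 1305 and 1828 at 19 months, with MT mice at 1356 and 1566. Its MT difference was 0.12 ± 0.18, with an interval of -0.29 to 0.54 (limma adjusted p = 0.830). Its other probe set, 1451004_at, stayed between 166 and 222 on all arrays, with an MT difference of 0.17 ± 0.24 (adjusted p = 0.815).

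Acvr2b was lower in both MT arrays than on any WT array, at a size that missed the threshold. Probe set 1419140_at read 183 and 239 in young WT mice, 212 and 154 at 12 months and 216 and 147 at 19 months, and 86.8 and 74.3 in MT mice, close to the array median. The MT difference was -1.38 ± 0.31 on the log2 scale, a 2.60-fold lower level (SE, 2 arrays a group, unadjusted p = 0.00136, limma adjusted p = 0.0853), with an interval of -2.07 to -0.69. Leaving out each array in turn moved the difference between -1.57 and -1.19. The WT ages overlapped, with differences of -0.21 ± 0.31 for 12 months and -0.23 ± 0.31 for 19 months (adjusted p = 0.900 and 0.813). The other Acvr2b probe sets were not tested and did not show the pattern: 1439856_at read 55.5 and 25.4 in young WT mice and 48.6 and 43.7 in MT mice, and 1440525_at was between 1.66 and 41.6 everywhere. The lower level in MT mice therefore rests on 1 probe set.

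Smad7 was also lower in MT mice on both of its probe sets, without passing the test. Probe set 1423389_at read 992 and 1075 in young WT mice and 324 and 596 in MT mice. In older WT mice it read 443 and 1283 at 12 months and 1214 and 984 at 19 months. Probe set 1443771_x_at, whose suffix marks probes that can match other transcripts, read 284 and 307 in young WT mice and 171 and 151 in MT mice, and 95.5 and 319.7 at 12 months and 279.7 and 311 at 19 months. MT arrays lay below young and 19-month WT arrays on both probe sets, and 12-month array 1 was as low as MT mice or lower. The MT differences were -1.23 ± 0.44 and -0.88 ± 0.45 (2.35-fold and 1.84-fold lower, unadjusted p = 0.0199 and 0.0835, limma adjusted p = 0.264 and 0.442). Leaving out a 12-month array changes only the spread used in these tests, and not the MT differences. The 12-month differences of -0.45 and -0.76 became 0.31 and 0.11 without 12-month array 1, and -1.22 and -1.63 without 12-month array 2. At 19 months the differences were 0.08 and 0.00 (adjusted p = 0.961 and 0.999). The probe sets correlated at r = 0.839.

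**Figure D3:**
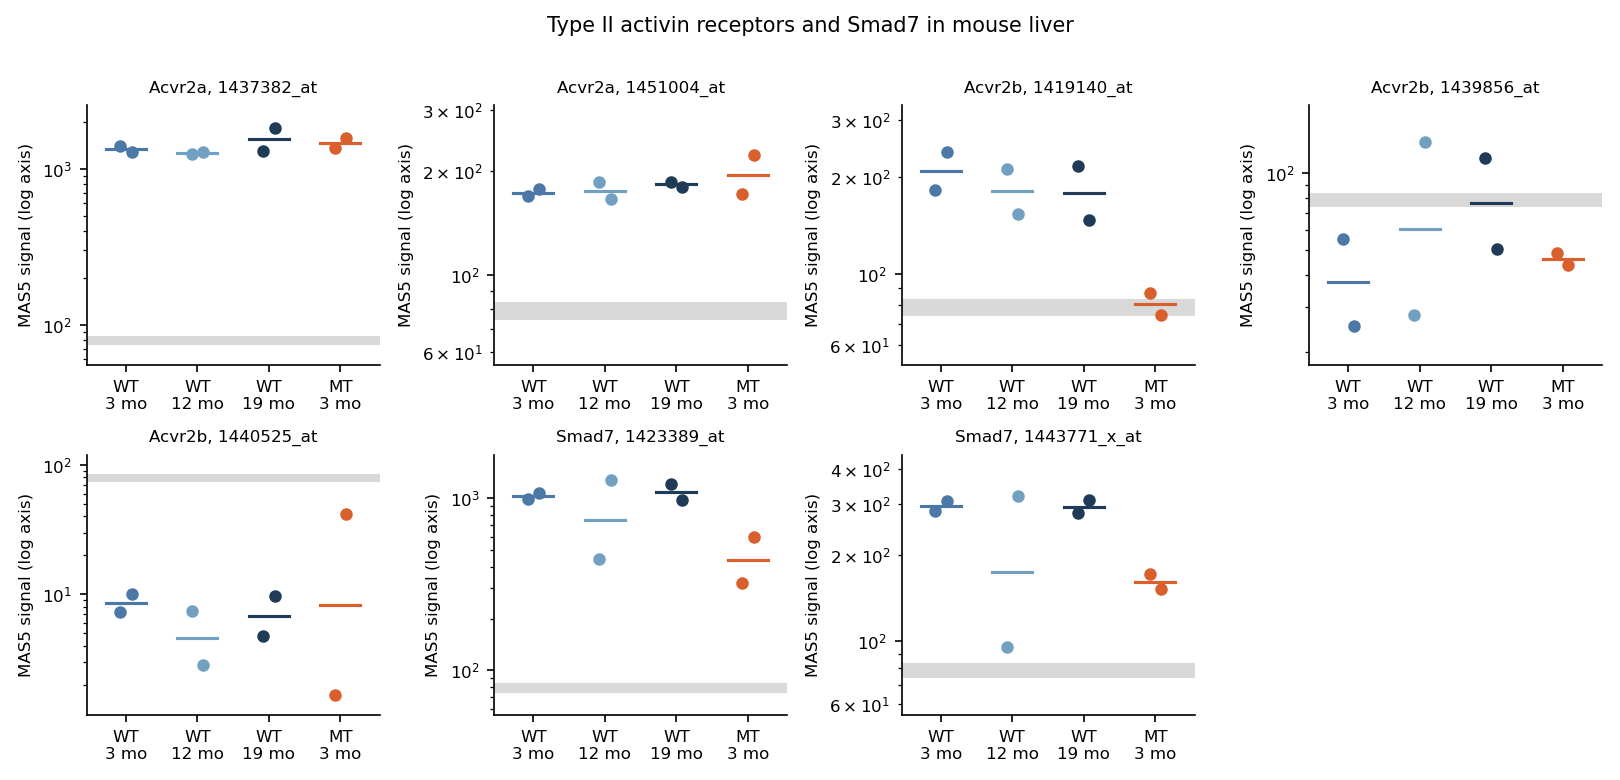
MAS5 signal (log axis) of the 7 probe sets of Acvr2a, Acvr2b and Smad7 by group, each array shown as a point, a line at the geometric mean and a grey band over the range of array medians. Acvr2b probe set 1419140_at is near the band only in MT mice, at 86.8 and 74.3, and both Smad7 probe sets have 12-month array 1 far below array 2.

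Counted over the 8 genes that could be tested, 0 of 12 probe sets were called in MT against WT mice at 3 months, where 0.515% of all 22519 tested probe sets were called. Of the 12, 2 had an unadjusted p under 0.05 (13.5% of all probe sets), namely Acvr2b and Smad7 1423389_at. Arrays did not overlap for 3 higher probe sets (Fstl1 1448259_at, Inhbc and Inhbe) and 3 lower ones (Acvr2b and both of Smad7), or 6 of 12 against 45.7% of all probe sets. That share is near the background. The median of the 12 differences was 0.15, beside 0.02 over all tested probe sets.

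At 12 months 0 of 12 were called (0.0133% of all), 1 had an unadjusted p under 0.05 (8.57% of all) and the median was -0.13 beside 0.00 over all, and 1 higher (Inhba) and 1 lower (Fstl1 1448259_at) did not overlap (40.1% of all). At 19 months 0 of 12 were called (0.0355% of all), 2 had an unadjusted p under 0.05 (12.5% of all), and 4 higher and 1 lower did not overlap, where 48.2% of all probe sets did not overlap in either direction. Between 19 and 12 months all 15 tested probe sets could be used, Fst and Lefty1 among them. None of these 15 was called by limma (0% of all), 0 had an unadjusted p under 0.05 (10.7% of all), and the arrays of 1, Acvr2a 1437382_at, did not overlap (41.3% of all).

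**Figure D4:**
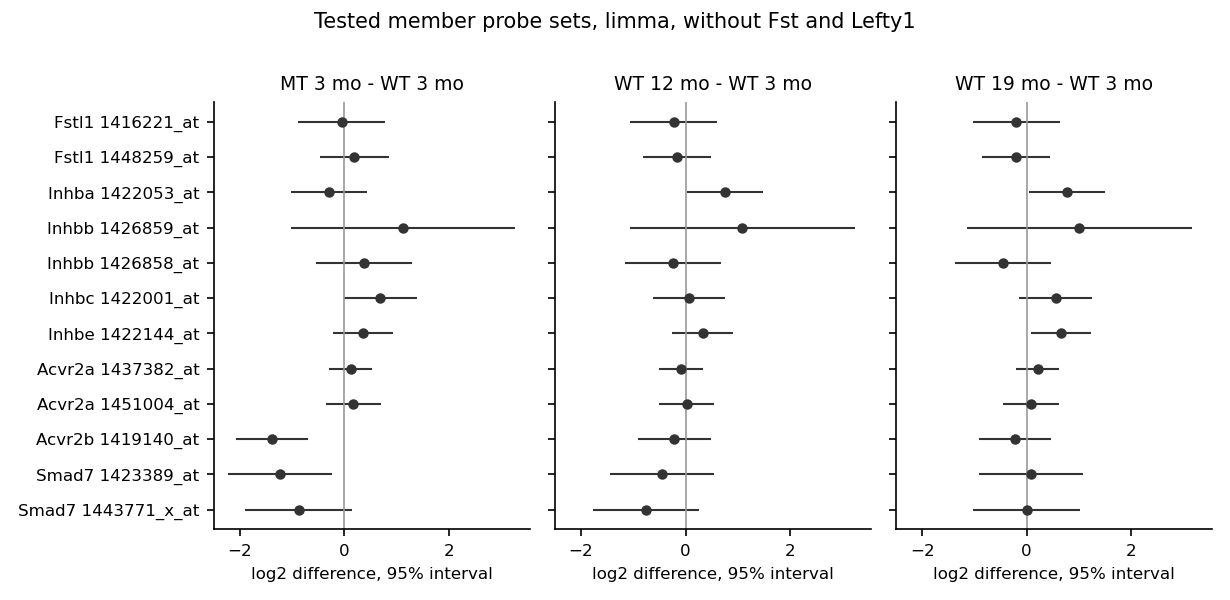
Log2 difference from 3-month-old WT mice with its 95% interval from limma for the 12 tested probe sets other than those of Fst and Lefty1, in MT mice and in WT mice of 12 and 19 months. The intervals of Acvr2b (-2.07 to -0.69) and Smad7 1423389_at lie below 0 in MT mice, those of Inhba lie above 0 at both older ages and that of Inhbe lies above 0 at 19 months.

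Between the genes, Acvr2b and Lefty1 were the most opposed over the 8 arrays (r = -0.923), followed by Lefty1 and Smad7 (r = -0.747). Both values are descriptions, since Lefty1 was chosen for its MT level and the 3 genes were read on the same arrays. The probe sets most like Fst in log2 signal were those of Rab11fip2 (r = 0.978), 2900052L18Rik (0.976), Ddx54 (0.965), Ptpn11 (0.956) and Bcl3 (0.951). Bcl3, which encodes a nuclear IκB protein, read 467 and 409.7 in young WT mice and between 719 and 989 on the other 6 arrays. The probe sets most like Lefty1 were those of Ddx5 (0.976), Srsf3 (0.974), Zfp612 (0.970), Rcan1 (0.968) and Pitpnc1 (0.966). Srsf3, for a splicing factor, read between 2666 and 3616 on the 6 WT arrays and 5631 and 5632 in MT mice. For Acvr2b they were Lmf1 (0.973), Psmd10 (0.967), Ccdc166 (0.966), Fbxl20 (0.966) and Mtus1 (0.963). These values rank those of the 22519 tested probe sets that had 1 symbol, over only 8 arrays that share their RNA, and are descriptions.

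The other genes of the TGF-beta superfamily were read through a list of 69, of which 63 were on the array and 41 were tested, each by its probe set of highest mean. In limma 0 of 41 were called in any of the 4 comparisons, with 4, 6, 4 and 6 at an unadjusted p under 0.05 for MT, 12 months, 19 months and 19 against 12 months, where 13.5%, 8.57%, 12.5% and 10.7% of all probe sets had such a p. Fits without a single array keep only 1 array in its group, so their calls of Id1 or Id3 are not read as passing. In MT mice 23 lay above 0 and 18 below, with a median of 0.02, the same as over all probe sets. By role the MT medians were 0.18 for 3 antagonists, 0.01 for 9 ligands, 0.22 for 9 receptors, 0.02 for 13 transducers and -0.29 for 7 target genes, of which 6 lay below 0. Target genes were much the same at 12 months, with a median of -0.23 and 6 of 7 below 0. At 19 months their median was -0.05, with 4 below 0 and 3 above.

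Among the transducers, Nedd4l, a ubiquitin ligase that marks activated SMAD2 and SMAD3 for destruction, came nearest to the threshold. It read 1185 and 1123 in young WT mice and 759 and 531 in MT mice, below all 6 WT arrays, a log2 difference of -0.86 (limma adjusted p = 0.0907). Tgif1, a repressor that binds SMAD2, read 525 and 396 in young WT mice and 286 and 246 in MT mice, a difference of -0.78 (adjusted p = 0.170).

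The target genes Id1 and Id3, inhibitors of helix-loop-helix factors and classical targets of BMP signalling, lay below young WT in MT mice, as Smad7 did, without passing the test. Id3 read 5140 and 4463 in young WT mice and 3201 and 2004 in MT mice (-0.92, limma adjusted p = 0.107). Without MT array 1 the Id3 difference was -1.26, resting on 1 MT array. Id1 read 2745 and 2594 in young WT mice and 1441 and 1113 in MT mice, and at 12 months 538 and 5151. Its MT difference of -1.08 had an adjusted p of 0.594 with all arrays, and of 0.0304 and 0.0327 without array 1 or array 2 of the 12-month group, whose 2 readings lay far apart. Of the 7 target genes, 4 (Id1, Id2, Tgfbi and Atoh8) had their lowest signal on 12-month array 1, the array on which Smad7 was low. That array also had the lowest median of the 8 (74.7) and the lowest Sirt1, Inhbc and Inhbe signals. Not all its signals were low, since its Fst 1434458_at signal of 685 was the highest of the 8. Smad7 1423389_at itself was lowest on MT array 1, at 324. Correlations with Smad7 over the 8 arrays were 0.723 for Id1, 0.793 for Tgfbi, 0.660 for Id2, 0.635 for Atoh8, 0.567 for Id3, 0.278 for Ccn2 and -0.42 for Pmepa1. Id1, Id2 and Tgfbi were named after their values were seen.

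Among the ligands and intracellular antagonists, Bmp4 and Smad6 read above the young WT level on all 4 arrays of older WT mice, without passing the test. Bmp4 read 116 and 108 in young WT mice, 234 and 318 at 12 months and 218 and 293 at 19 months, and MT mice read 167 and 165. Its differences for 12-month-old, 19-month-old and MT mice were 1.29, 1.18 and 0.57 (limma adjusted p = 0.212, 0.180 and 0.380). Smad6, the inhibitory Smad of the BMP branch, read 448 and 394 in young WT mice, 748 and 978 at 12 months and 710.5 and 804 at 19 months. MT mice read 439 and 513 for Smad6, near the young WT level. The Smad6 differences were 1.03, 0.85 and 0.18 (adjusted p = 0.189, 0.183 and 0.758).

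The remaining genes of largest test statistic in each role did not pass either. In MT mice Tgfbr1 and Tgfbr2, the TGF-beta receptors, differed by 0.33 each (limma adjusted p = 0.423 and 0.428), the BMP antagonist gene Chrd by 0.64 (0.508), Nodal, whose product LEFTY1 blocks, by 0.26 (0.800), and Atoh8 by -0.48 (0.580). Nodal read 98.8 and 96.6 in young WT mice, with 94.6 and 144 in the MT group, near the array median.

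**Figure D5:**
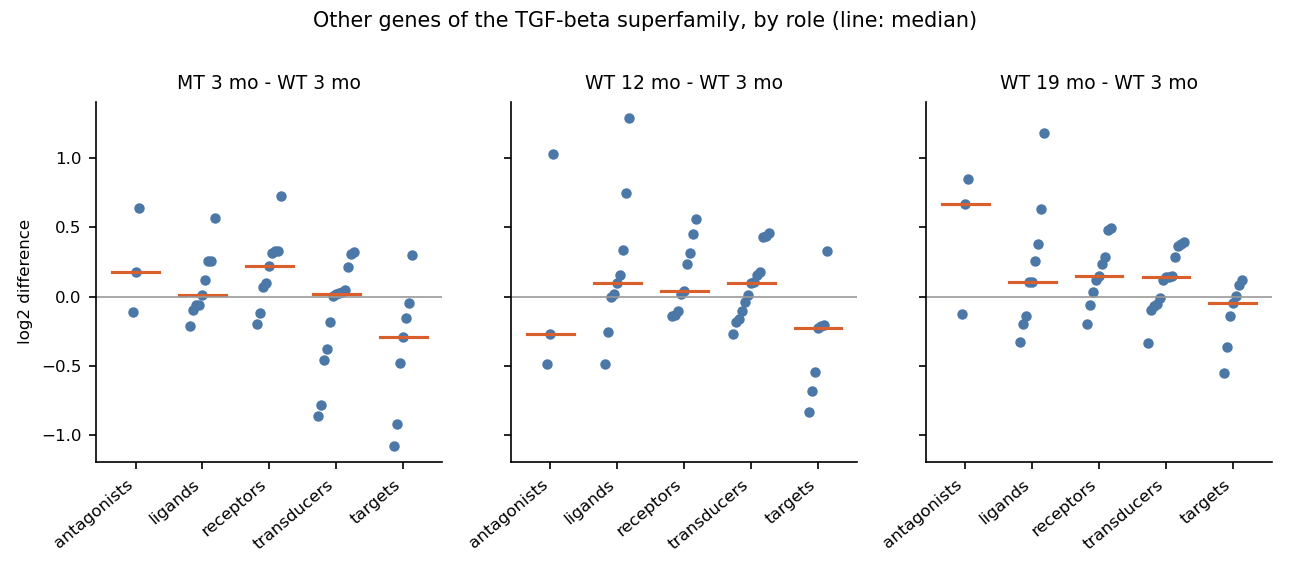
Log2 difference from 3-month-old WT mice of the 41 tested genes of the TGF-beta superfamily other than the 10 genes, by role, in MT mice and in WT mice of 12 and 19 months; points are genes and red lines medians. In MT mice the median of the 7 target genes is -0.29, with Id1 at -1.08 and Id3 at -0.92. At 12 and 19 months the target median is -0.23 and -0.05.

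Whole liver was measured, in which fewer cells of a type and less RNA per cell cannot be told apart. No marker of another liver cell was called by limma, and the signals below are summed over all markers of a list on the array, tested or not. In MT mice the 4 tested T and NK cell markers lay below 0, with sums over 6 markers of 442 to 495 against 712 to 771 in young WT mice, and the 3 tested neutrophil markers lay above 0, with sums over 4 markers of 1130 to 1371 against 769 to 833. Neutrophil sums were 912 to 1047 at 12 months and 1602 to 1794 at 19 months. T and NK cell sums were 576 to 690 at 12 months and 531 to 563 at 19 months, also below young WT mice. At each of these ages 3 of the 4 tested T and NK cell markers lay below 0. Stellate cell and fibroblast markers, from cells that also use activin and TGF-beta, lay above 0 for 6 of 9 tested, and their sums over 10 markers overlapped, at 23425 to 24205 in MT and 23701 to 24305 in young WT mice. Of the 10 endothelial markers 8 lay below 0 in MT mice, with sums of 15940 to 19809 against 19056 to 20316. The largest differences among them went opposite ways. Stab2 was lower (-1.04, limma adjusted p = 0.0501) and Lyve1 higher (1.44, adjusted p = 0.0613), with Lyve1 means of 197 in young WT mice, 533 in MT mice, 547 at 12 months and 273 at 19 months. At 19 months all 10 Kupffer cell markers lay above 0, with sums of 28115 to 44642 against 24228 to 24758. In MT mice 8 of these 10 lay below 0 and 2 above, with sums of 18735 to 20937, below both young WT arrays. The same counts held at 12 months, with sums of 20930 to 22881. The sums of 4 B and plasma cell markers were 509.6 to 524 in young WT mice and 416 to 721 in MT mice. They were 864 to 1403 at 12 months and 1682 to 2141 at 19 months. Of the 3 tested, 1 lay above 0 and 2 below at 12 months (median log2 difference -0.35), and 3 lay above 0 at 19 months. The sums of 6 bile duct markers were 261 to 287 in young WT mice, with 349.9 to 548 in the MT group. Only 1 of these 6 was bright enough to be tested, at a log2 difference of 0.34 in MT mice (limma adjusted p = 0.799). Cftr, Cd79a and Hba-a1 were below the array median on all arrays. The part of these cells in the levels of Fst, Lefty1, Acvr2b, Smad7 or Inhba was not tested.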

How the data were processed

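Livers of 4 groups were measured on 8 one-colour Affymetrix Mouse Genome arrays, 2 per group. The values deposited by the authors were linear MAS5 intensities that had been scaled to a common trimmed mean. No MAS5 version is given in the sources used here. Groups came from the sample descriptions. Scanner files and detection calls were not used.

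Of 45101 probe sets, 64 Affymetrix controls were left out. In the platform annotation 34945 of the rest had 1 symbol, 932 several and 9160 none. A RefSeq table held the Entrez IDs of 34741 of them and changed 0 symbols. Another probe set names Acvr2a beside a further gene and was not used. Signals below 1 were set to 1 (1796 values) and put on the log2 scale. The brighter 50% of probe sets by mean log2 signal (22519, at 6.18 or more) entered 1 limma fit over all groups (limma 3.58.1, R 4.3.3, eBayes with a trend), which had 4 residual and 5.37 prior degrees of freedom. P-values were two-sided, adjusted by Benjamini-Hochberg over all tested probe sets of a comparison, and called at an adjusted p under 0.05. The fit was checked on simulated data. An exact permutation test of 2 against 2 arrays cannot go below 0.333, so none was used.

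Where both arrays of a group read a probe set below their medians it was called low, and its fold was bounded at that median. The members, the lists, the tests and the motifs were chosen with earlier results of these data known. Named were all probe sets of the 10 genes, the 2 list genes of largest absolute moderated statistic in MT mice in each role, any list gene called, and the 5 symbols of highest Pearson correlation with Fst, Lefty1 and Acvr2b. Upstream windows were searched for 7 of the 10 genes, without Fst, Lefty1 and Smad7, and only 2 are printed. Tables and plots used pandas 2.3.3, numpy 2.4.6 and matplotlib 3.10.9 in Python 3.11.15. The number of arrays limits the precision.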

Additional observations from a re-analysis of the deposited data

How the results depend on the processing

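Alternatives covered quantile normalization, log2(signal + 16), the filter on dim probe sets, the 2 groups alone, no variance trend, the methods' t-test, a replicate block and leaving out each array. The count of called probe sets of the 8 tested genes stayed at 0 in all comparisons under all of these except the methods' t-test at a fold of 1.5 and an unadjusted p under 0.05. That test gave 3 in MT mice (Acvr2b, Inhbc and Smad7 1443771_x_at), 1 at 12 months (Inhba) and 2 at 19 months (Inhba and Inhbe), and 0 after Benjamini-Hochberg. For the other superfamily genes it gave 2 in MT mice (Chrd and Id1), 2 at 12 months and 2 at 19 months (Smad6 and Bmp4 at both ages) and 1 between 19 and 12 months (Amhr2). Leaving out an array keeps only 1 in its group, so the calls of Id1 or Id3 that it gave are not read as passing. Without 12-month array 2 the Id1 difference at 12 months was -2.31. With log2(signal + 16) the Lefty1 difference was 1.71 in place of 1.86. Leaving out each array moved it between 1.77 and 1.95, and that of Fst 1434458_at between 2.22 and 2.86. The adjusted p of Acvr2b in MT mice ranged from 0.0787 to 0.424 over the limma alternatives.

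Over all tested probe sets, leaving out each array moved the counts called from 116 to between 13 and 255 in MT mice, from 3 to between 0 and 20 at 12 months, from 8 to between 2 and 30 at 19 months, and from 0 to between 0 and 11 between 19 and 12 months. Without a variance trend they were 9, 0, 1 and 0, with only the 2 groups in a fit 135, 12, 135 and 5, and by the methods' t-test 890, 502, 750 and 524. With no filter the last comparison had 3. Deviations of same-numbered arrays correlated at -0.03 to 0.14. Whether the numbers pair samples is not stated, and low correlations cannot show that they do not. With the replicate block the counts were 129, 3, 25 and 0 over all probe sets, and 0 for the members and for the other superfamily genes. With 2 arrays per group, an adjusted p above the threshold does not show that levels were alike.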
